A study of Xenopus tropicalis with 12 samples.

Results

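The 150 genes described here are those whose transcripts were lowest, relative to LacZ controls, in Xenopus tropicalis animal caps that received mRNA of human PHF8. They were chosen from CPM values, that is, read pairs on the sense strand of each gene scaled to a total of 1000000 per library. Genes with a mean of at least 5 CPM over replicates 1 and 3 of the PHF8 group and the 3 LacZ replicates were ranked by the log2 gap between the lowest LacZ library and the higher of the 2 PHF8 libraries, after adding 0.5 CPM. The top 150 of 10243 such genes, out of 34177 gene IDs, were kept. The second PHF8 library was left out of the choice because it is shallow and stands apart, and the LacZ and PHF8 values that chose the genes are given as a description without a test.

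An animal cap is an explant of prospective ectoderm, which forms a mucociliary epidermis in culture, with multiciliated cells, ionocytes, goblet cells and small secretory cells. RNA was sequenced from caps at Nieuwkoop-Faber stage 16, pooled at about 30 explants per library, with 3 biological replicates in each of 4 groups. The hPhf8 group received human Phf8 mRNA alone, and its controls mRNA of LacZ, the bacterial beta-galactosidase gene, both without a morpholino. In the hRescue group the human Phf8 mRNA was combined with morpholinos against Suv4-20H1 and Suv4-20H2, and its CoMo controls a control morpholino without mRNA. hRescue and CoMo thus differ by both reagents, whose parts cannot be told apart here, and caps with the Suv4-20H morpholinos alone were not analysed here. Morpholinos of this kind block translation, so transcript levels do not check the knockdown, and the injected PHF8 is human, so counts of the frog gene do not check the overexpression.

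PHF8 is a histone demethylase of the Jumonji family. It binds promoters that carry trimethylated histone H3 lysine 4 and removes methyl groups from monomethylated histone H4 lysine 20, among other marks. SUV4-20H1 and SUV4-20H2 convert the same monomethyl mark to the di- and trimethyl states. The mark is laid down by KMT5A and rises on mitotic chromosomes, and PHF8 and the SUV4-20H enzymes therefore act on a shared substrate. The question put to the 150 genes was where they lay in the other control, CoMo, and whether PHF8 mRNA given together with the Suv4-20H morpholinos kept, extended or reversed their low level.

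Libraries held 2204210 to 14484963 sense counts over genes in hPhf8, 14361942 to 35584520 in LacZ, 5258667 to 7444628 in hRescue and 16686987 to 20975779 in CoMo. The lowest of these was hPhf8 replicate 2, in which only 8.87% of read pairs fell in genes. The hRescue libraries differed in composition as well as in depth, since 53.9% to 60.9% of their feature counts fell on features without a gene ID, against 21.5% to 31.6% in CoMo. Each number of counts is a sum over a pool of explants, so fewer cells of a type and less RNA per cell cannot be told apart.

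The gap that defined the genes was mostly small. The lowest LacZ library was 1.13 to 2.60 times the higher of hPhf8 1 and 3. By group means, LacZ exceeded hPhf8 1 and 3 by a median of 1.42 times, with a range of 1.17 to 4.42, and 12 of the 150 genes reached 2-fold. Both hPhf8 libraries lay under all LacZ libraries for 490 genes, which is 4.78% of those past the level filter, whereas they lay above all of them for 25.5%. The median over all 10243 genes was 0.16 higher in hPhf8 1 and 3 than in LacZ on the log2(CPM + 0.5) scale, and the median of the 150 genes was -0.50, that is, -0.67 relative to this shift. At the edge of the selection, gene6562 and abhd17a, which encodes a depalmitoylase, had gaps of 0.18 and 0.17 on the log2 scale and were the last 2 genes kept, while rp2 and gene6297, also with gaps of 0.17, were the first 2 left out. Over all 3 hPhf8 and 3 LacZ libraries, edgeR's quasi-likelihood test called 0 of 16845 genes (0% in the downward direction, lowest adjusted p = 0.781), with 1026 genes (6.09%) at an unadjusted p under 0.05, 577 of them lower (3.43%). DESeq2, run as an alternative on the same libraries, called 64 genes, and as 30 of these are among the 150 genes chosen on the same values, nothing is read from that overlap.

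The genes were expressed at moderate levels, with a median of 68.5 CPM over hPhf8 1 and 3 and LacZ against 32.5 CPM for all genes past the filter. Names were found for 100 of them, 14 more have a locus number only, 4 a gene model number only and 32 could not be paired. Their loci, in the v9.1 assembly, were spread over all 10 chromosomes, from 18 on chromosome 1 to 5 on chromosome 9, with 8 on unplaced scaffolds. Of the named genes, 55 could be placed in 6 broad roles after their values had been seen. These were 14 transcription factors, 10 ligands and signal modulators, 7 receptors and channels, 7 GTPases, G protein subunits and their regulators, 9 chromatin and RNA factors, and 8 metabolic enzymes.

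The genes with the widest gaps included receptors and transcription factors at low levels. The first by rank was rtn4rl1 on chromosome 2, which encodes a membrane-anchored receptor of the Nogo receptor family. It had 2.55 and 5.66 CPM in hPhf8 1 and 3, against 14.7, 22.0 and 17.3 CPM in LacZ. The second was tbx20 on chromosome 6, a T-box transcription factor known from heart development, with 5.94 and 9.98 CPM in hPhf8 1 and 3, against 22.3, 28.9 and 24.6 CPM in LacZ. Neither gene was low in hPhf8 replicate 2, which gave 20.0 CPM for rtn4rl1 and 25.9 CPM for tbx20, each at or above the lowest LacZ library. The same held for hand2 on chromosome 1, a basic helix-loop-helix factor of the heart and branchial arches. It had 19.8 and 25 CPM in hPhf8 1 and 3 and 68.1 CPM in hPhf8 2, against 38.2, 77.6 and 39.1 CPM in LacZ. The next receptor, gfra3 on chromosome 3, is the artemin co-receptor that signals through RET. It had 2.76 and 1.34 CPM in hPhf8 1 and 3, against 10.5, 6.44 and 5.36 CPM in LacZ. At 3 counts per library, the limit allowed by a count of 0 is 1.36 CPM in hPhf8 2, where gfra3 was at 0.

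Of the other named genes with wide gaps, 3 encode secreted signalling proteins. The chemokine gene cxcl12 on chromosome 7, which encodes the ligand of CXCR4, had 34.5 and 44.6 CPM in hPhf8 1 and 3, against 79.4, 77.0 and 97.8 CPM in LacZ. Its hPhf8 2 value of 73.5 CPM lay just under the LacZ libraries. The activin-binding follistatin gene fst on chromosome 1 had 7.87 and 8.63 CPM in hPhf8 1 and 3, against 15.1, 14.2 and 17.7 CPM in LacZ, and was at 0 in hPhf8 2. The gene tsku on chromosome 2 encodes tsukushi, a secreted leucine-rich repeat protein that modulates BMP and other signals in Xenopus. It had 172 and 198 CPM in hPhf8 1 and 3 and 174 CPM in hPhf8 2, against 299, 345 and 375 CPM in LacZ, so that here all 3 hPhf8 libraries were low. Of the remaining genes of this set, vhl on chromosome 4 encodes the subunit of a ubiquitin ligase that recognises hydroxylated HIF. It had 12.2 CPM in each of hPhf8 1 and 3 and 1.81 CPM in hPhf8 2, against 22.6, 24.0 and 21.1 CPM in LacZ. The small GTPase gene rasd1 on chromosome 9, induced by dexamethasone in mammalian cells, had 4.83 and 4.60 CPM in hPhf8 1 and 3 and 6.35 CPM in hPhf8 2, against 8.87, 7.73 and 9.54 CPM in LacZ.

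**Figure D1:**
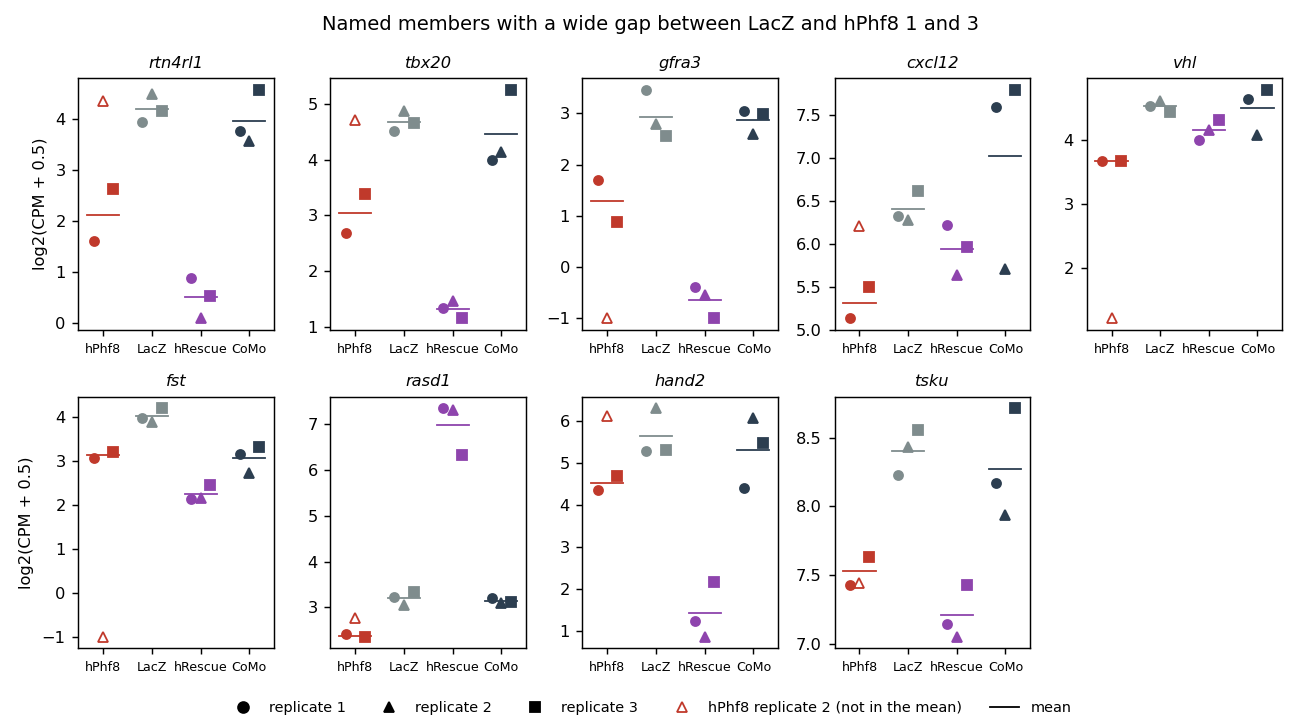
Levels of 9 named genes with a wide gap, as log2(CPM + 0.5), in each library of hPhf8, LacZ, hRescue and CoMo, with 1 panel per gene and its own axis. Symbols mark replicates, lines the group means (hPhf8 replicates 1 and 3 only), and the open triangle hPhf8 replicate 2, which lies among or above LacZ for rtn4rl1, tbx20 and hand2. The hRescue libraries lie below all others for rtn4rl1, tbx20 and hand2, and above all others for rasd1.

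Replicate 2 of hPhf8, which the choice had not used, lay below the lowest LacZ library for 117 of the 150 genes (78%), against 44.6% of all genes past the filter, and above the highest LacZ library for 20 (13.3%), against 30.2%. Its share below LacZ was thus above the background, though its LacZ values are the ones the choice used. Set against CoMo, which the choice did not use, it lay below the lowest CoMo library for 97 genes (64.7%), against 50.3% of all genes. With 2204210 counts, this library resolves low genes poorly. Its antisense share over all genes, 23.5%, was also the highest of all libraries.

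CoMo lay nearer to LacZ than to hPhf8. On the log2(CPM + 0.5) scale the median gene lay 0.79 of the way from hPhf8 (0) to LacZ (1), and the difference of hPhf8 1 and 3 minus CoMo had a median of -0.38, against 0.05 for all genes past the filter. All 3 CoMo libraries were above both hPhf8 libraries for 65 of the 150 genes (43.3%), where 7.28% of all genes past the filter showed this. The genes were chosen by the same hPhf8 and LacZ values, so the position of CoMo, its difference from hPhf8 and this count are descriptions only. The count depended on CoMo replicate 2, as CoMo 1 and 3 alone were above both hPhf8 libraries for 119 genes (79.3%), against 15% of all genes.

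CoMo replicate 2 was the lowest of the 3 CoMo libraries for 108 of the 150 genes (72%), where 26.2% of all genes past the filter had it lowest. CoMo 1 was lowest for 32 (21.3%, against 39.8%) and CoMo 3 for 10 (6.67%, against 34%). The median of CoMo 2 minus the mean of CoMo 1 and 3 was -0.35 on the log2(CPM + 0.5) scale for these genes and 0.14 for all genes past the filter. Before the shift of all genes is counted, the level thus varied between CoMo replicates by nearly as much as between hPhf8 and CoMo (-0.38). All genes past the filter shifted the other way in both comparisons, and by more between the CoMo replicates (0.14) than between hPhf8 and CoMo (0.05). The gene szl on chromosome 3 shows the spread between CoMo replicates. It encodes sizzled, a secreted inhibitor of the proteinases that cleave chordin, and had 127 and 42.9 CPM in hPhf8 1 and 3, against 265, 65.5 and 243 CPM in CoMo. In cxcl12 the same library stood apart, with 34.5 and 44.6 CPM in hPhf8 1 and 3, against 192, 51.5 and 221 CPM in CoMo. The part of this replicate difference in the results was not tested, and the main counts are also given without CoMo 2.

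**Figure D2:**
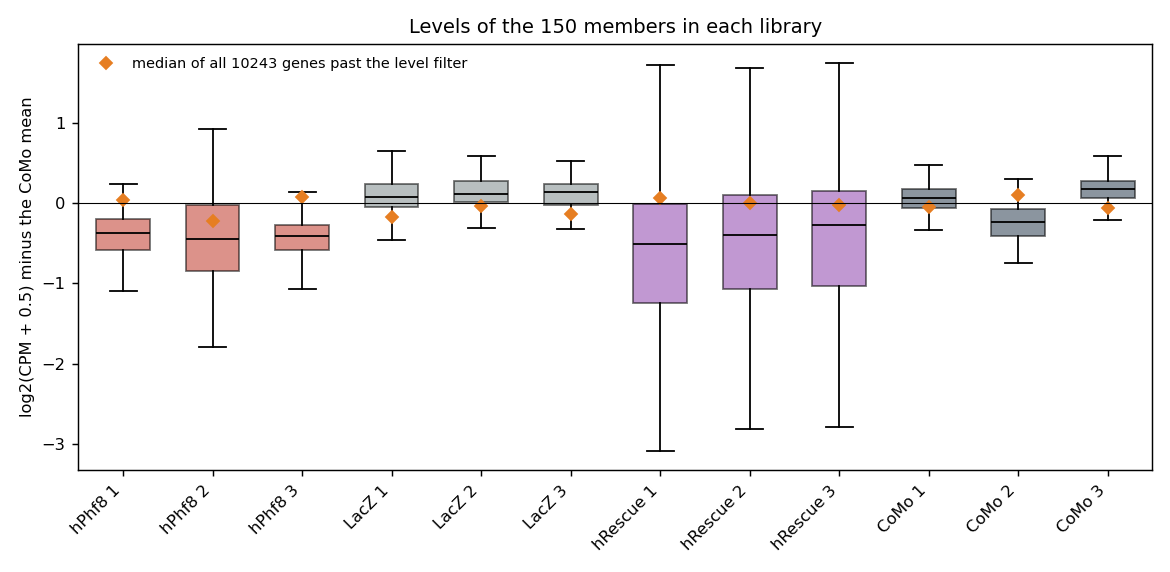
Levels of the 150 genes in each of the 12 libraries, as log2(CPM + 0.5) minus the mean of the 3 CoMo libraries (boxes, quartiles and median; whiskers, values within 1.5 times the box height; genes beyond the whiskers are not drawn), with the median of all 10243 genes past the level filter as diamonds. Medians are -0.37, -0.45 and -0.41 in hPhf8 1 to 3, 0.08, 0.12 and 0.14 in LacZ, -0.51, -0.40 and -0.28 in hRescue, and 0.07, -0.23 and 0.17 in CoMo, and the hRescue boxes are the tallest.

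Against CoMo, hRescue left 69 of the 150 genes lower and 8 higher at an adjusted p under 0.05 (edgeR's quasi-likelihood test over 17099 genes, 3 libraries against 3), while 73 were not called. All 3 hRescue libraries lay under all CoMo libraries for 65 genes (43.3%), where 28.1% of genes past the filter did, and above all of them for 15 (10%), where 25.8% did. The called shares were 46% lower and 5.33% higher, beside 18.7% lower and 14.7% higher of all genes tested, and 28.6% lower and 12.3% higher of the 10236 tested genes past the level filter. The median log2 fold change was -0.60 (quartiles -1.33 and -0.19), against -0.22 for genes past the filter and -0.02 for all genes tested. Fitted fold changes use TMM scaling. On plain CPM the medians were -0.35 for the 150 genes and 0.01 for genes past the filter, so the distance between both sets was similar on either scale. The 150 genes selected in the same way for being higher in hPhf8 1 and 3 than in LacZ gave 14 lower and 35 higher, with a median of 0.33. That set had a median level of 11.2 CPM, against 68.5 CPM for the genes described here and 32.5 CPM for genes past the filter. The called counts of these sets are therefore not matched for level. Without CoMo 2, 86 of the genes described here were lower and 6 higher, with a median of -0.78. That fit called 6115 genes in all, against 5718 in the main fit, so the called shares above are not its background. Of the named genes called higher, described further on, gch1 and cdc27 lost their calls without CoMo 2. Of the 69 genes, 52 were lower by at least 2-fold, and 3 of the 8 were higher by as much. Among genes past the filter, 1980 of the 2928 called lower and 606 of the 1255 called higher changed by at least 2-fold.

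Calls were also counted by the width of the gap between LacZ and hPhf8, without a test of the trend. The 50 genes with the widest gap held 22 lower and 6 higher, the next 50 held 26 and 2, and the last 50 held 21 and 0, with median log2 fold changes of -0.66, -0.63 and -0.60 and lower quartiles of -2.10, -1.60 and -1.14. Of these, 21, 17 and 14 genes were called lower by at least 2-fold, beside 1980 of the 10236 tested genes past the filter. Of the 100 genes with a symbol 53 were lower, as were 16 of the 50 without, and the symbols came from tables that list genes that changed in the study's own comparisons. The 65 genes for which all CoMo libraries exceeded hPhf8 held 29 lower and 2 higher, and the other 85 held 40 lower and 6 higher.

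Each gene was also placed by its plain CPM in hRescue relative to hPhf8 1 and 3. All 3 hRescue libraries lay below both hPhf8 libraries for 56 genes (37.3%), an extension of the low level that 34.8% of all genes past the filter showed. They lay above both for 51 genes (34%), a reversal shown by 29.5% of all genes, and 44 of these (29.3%, background 29%) had all hRescue libraries at or above the lowest CoMo library. The remaining 43 genes (28.7%) kept a level that overlapped hPhf8 (background 35.7%). The extended and reversed classes lay near their background and the kept class somewhat below its own. The hPhf8 values that all 3 classes use are those that chose the genes. Of the 56 extended genes, 54 were called lower than CoMo, as were 14 of the 43 kept genes, whereas the 51 reversed genes held 8 called higher, 42 not called and 1, cxcl12, called lower. Class and call use the same hRescue libraries, so their agreement is partly built in and nothing is read from it. With TMM scaling 60 genes were extended, 40 reversed and 50 kept. The shares of all genes above are on plain CPM and are no background for these counts.

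**Figure D3:**
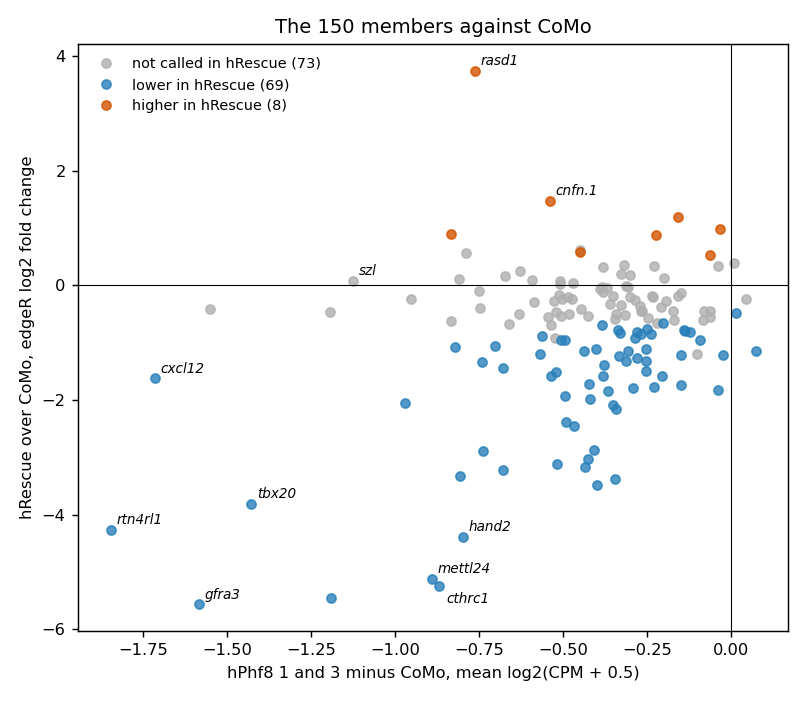
Each of the 150 genes by its difference between hPhf8 1 and 3 and CoMo (x axis, mean log2(CPM + 0.5)) and by its fitted log2 fold change of hRescue over CoMo (y axis, edgeR), coloured by the call. The CoMo libraries enter both axes. The 69 genes called lower reach down to gfra3 at -5.56 on the y axis, and rasd1 lies highest at 3.74.

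The deepest falls included receptors and transcription factors that are at low levels in CoMo. The gene gfra3 had 0.269, 0.188 and 0 CPM in hRescue, against 7.72, 5.57 and 7.44 CPM in CoMo, from 3 counts in all of hRescue and 380 in CoMo. By pooled CPM the level in CoMo was 41.8 times that in hRescue (95% exact interval of the counts 14.2 to 203.5, counting error only), and the fitted log2 fold change was -5.56 ± 0.62 (SE, edgeR adjusted p = 0.000232). Its highest hRescue library was under the lowest hPhf8 library used, an extension of the low level.

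Other named genes of the same roles fell by less than gfra3. The factor hand2 had 1.88, 1.32 and 3.99 CPM in hRescue, against 20.6, 66.0 and 43.7 CPM in CoMo, a log2 fold change of -4.39 ± 0.49 (SE, edgeR adjusted p = 0.000231). The Nogo-type receptor rtn4rl1 had 1.34, 0.564 and 0.951 CPM in hRescue, against 13.0, 11.3 and 23.2 CPM in CoMo, a log2 fold change of -4.27 ± 0.46 (SE, edgeR adjusted p = 0.000214). The T-box factor tbx20 had 2.01, 2.26 and 1.71 CPM in hRescue, against 15.5, 17.1 and 37.7 CPM in CoMo, with a log2 fold change of -3.81 ± 0.44 (SE, edgeR adjusted p = 0.00027). All 3 hRescue libraries lay under all CoMo libraries in each of these genes, and CoMo itself spread over 2-fold or more.

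The genes cthrc1, mettl24 and tril also fell by over 3 on the log2 scale. The secreted collagen triple helix protein gene cthrc1 on chromosome 6 had 62.6, 45.4 and 82.7 CPM in hPhf8 1 to 3, against 103, 118 and 127 CPM in LacZ. In hRescue it had 1.34, 2.26 and 9.89 CPM, against 148.9, 82.2 and 187 CPM in CoMo, a log2 fold change of -5.25 ± 0.66 (SE, edgeR adjusted p = 0.000366). The hRescue values spread over 7-fold, yet the highest was far under hPhf8. The methyltransferase-like gene mettl24 on chromosome 5 had 15, 9.53 and 15.3 CPM in hPhf8, against 21.0, 29.4 and 27.4 CPM in LacZ. It had 0.403, 1.69 and 0.951 CPM in hRescue, against 24.3, 27.3 and 34.9 CPM in CoMo, a log2 fold change of -5.12 ± 0.43 (SE, edgeR adjusted p = 8.07e-05). The gene tril on chromosome 6 encodes a leucine-rich membrane protein that interacts with Toll-like receptors. It had 105, 100.3 and 95.4 CPM in hPhf8, against 155, 132 and 154 CPM in LacZ, and 13.3, 13.7 and 16.2 CPM in hRescue, against 152.5, 99.7 and 153.3 CPM in CoMo. Its log2 fold change of -3.49 ± 0.27 (SE, edgeR adjusted p = 6.41e-05) came with closely grouped hRescue values.

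The 3 secreted signals among the genes with the widest gaps were lower too. The BMP modulator tsku had 141, 132 and 172 CPM in hRescue, against 287, 245 and 419 CPM in CoMo, with a log2 fold change of -1.34 ± 0.26 (SE, edgeR adjusted p = 0.0031). Its hRescue values were close to those of hPhf8. Follistatin (fst) had 3.90, 3.95 and 4.94 CPM in hRescue, against 8.31, 6.05 and 9.44 CPM in CoMo (log2 fold change -1.15 ± 0.34 SE, edgeR adjusted p = 0.0273), although its CoMo values overlapped those of hPhf8 1 and 3. The chemokine cxcl12 had 74.0, 49.1 and 62.0 CPM in hRescue, against 192, 51.5 and 221 CPM in CoMo, with overlapping groups (log2 fold change -1.62 ± 0.47 SE, edgeR adjusted p = 0.0246). With 1 library left out, cxcl12 kept its call only without CoMo 2. Likewise, fst kept its call only without CoMo 2 or without hRescue 3. The call of fst was also lost without TMM and in the fit over all 12 libraries. Over all alternatives the edgeR adjusted p-values reached 0.225 for fst and 0.0936 for cxcl12.

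Of the 8 genes called higher in hRescue than in CoMo, 5 have a symbol, and 3 are unnamed. The GTPase gene rasd1 had 162, 157 and 79.7 CPM in hRescue, against 8.78, 8.09 and 8.20 CPM in CoMo, a log2 fold change of 3.74 ± 0.28 (SE, edgeR adjusted p = 4.46e-05). Its CoMo values matched LacZ within the spread, and its hRescue values were far above every other library. The cornifelin gene cnfn.1 on chromosome 7, whose mammalian counterpart is a component of the cornified envelope of skin, had 139, 162 and 90.4 CPM in hPhf8, against 212, 182 and 180.2 CPM in LacZ. In hRescue it had 455, 634 and 547 CPM, against 201, 135 and 161 CPM in CoMo, a log2 fold change of 1.48 ± 0.24 (SE, edgeR adjusted p = 0.00135).

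The other 3 rose by less and were less stable. The gene gch1 on chromosome 8 encodes the rate-limiting enzyme of tetrahydrobiopterin synthesis. It had 237, 231 and 131 CPM in hPhf8, against 422, 398 and 333 CPM in LacZ, and 624, 1013 and 517 CPM in hRescue, against 397, 230.3 and 341 CPM in CoMo. Its log2 fold change of 0.90 ± 0.31 (SE, edgeR adjusted p = 0.0487) was no longer called when the replicate number was used as a block (adjusted p = 0.0579). The gene cdc27 on chromosome 10, a subunit of the anaphase-promoting complex, had 113, 90.6 and 93.4 CPM in hRescue, against 58.6, 49.0 and 60.1 CPM in CoMo (log2 fold change 0.58 ± 0.19 SE, edgeR adjusted p = 0.0378). The gene fam83g on chromosome 9 encodes a scaffold protein of casein kinase 1 that has been tied to BMP and Wnt signalling. It had 150.2, 152.7 and 155 CPM in hRescue, against 82.4, 95.4 and 92.7 CPM in CoMo (log2 fold change 0.53 ± 0.15 SE, edgeR adjusted p = 0.0236). Over the alternatives the adjusted p reached 0.175 for gch1, 0.117 for cdc27 and 0.0897 for fam83g. The call of cdc27 was lost whichever hRescue or CoMo library was left out. That of gch1 was lost without CoMo 2, CoMo 3, hRescue 1 or hRescue 2. That of fam83g was lost without CoMo 1, CoMo 3, hRescue 2 or hRescue 3. All 3 genes were thus lost without CoMo 3 or without hRescue 2, leaving 5 of the 150 genes called higher.

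**Figure D4:**
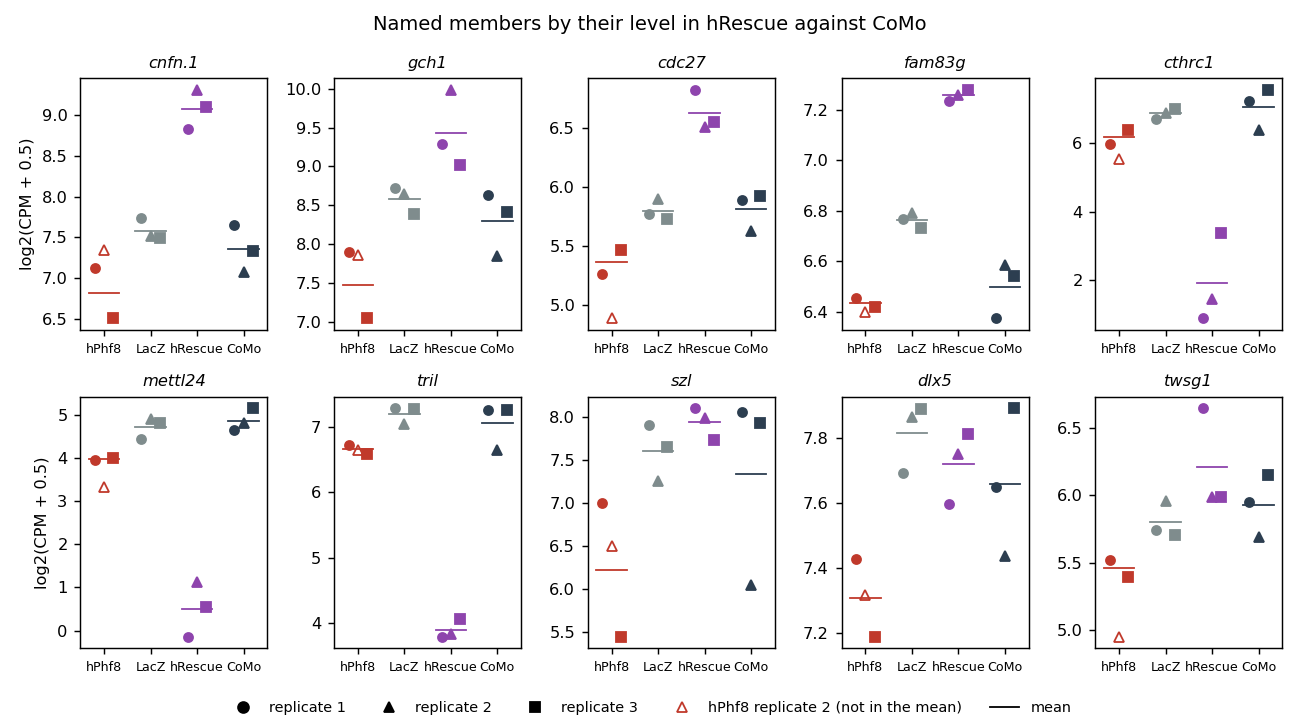
Levels of 10 further named genes as log2(CPM + 0.5) in each library of hPhf8, LacZ, hRescue and CoMo, with 1 panel per gene and its own axis. Symbols mark replicates, lines the group means (hPhf8 replicates 1 and 3 only) and the open triangle hPhf8 replicate 2. The genes cnfn.1, gch1, cdc27 and fam83g were called higher in hRescue than in CoMo, cthrc1, mettl24 and tril lower, and szl, dlx5 and twsg1 were not called.

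Among the 73 genes that were not called, 6 named genes had fitted changes close to 0. Besides szl they included twsg1 on chromosome 6, which encodes the BMP- and chordin-binding protein twisted gastrulation. Szl had 274, 253 and 213 CPM in hRescue, against 265, 65.5 and 243 CPM in CoMo, with a log2 fold change of 0.08 ± 0.44 (SE). Twsg1 had 99.4, 62.8 and 62.9 CPM in hRescue, against 61.2, 51.2 and 70.5 CPM in CoMo, with a log2 fold change of 0.04 ± 0.23 (SE). In both, every hRescue library was above both hPhf8 libraries used, at 127 and 42.9 CPM for szl and 45.4 and 41.6 CPM for twsg1. The other 4 were the zinc finger homeobox factor gene zfhx3 (log2 fold change -0.0046 ± 0.19 SE), the G protein subunit gene gnb5 (-0.02 ± 0.19), ttc7b, which encodes a scaffold of a phosphatidylinositol 4-kinase (-0.03 ± 0.23), and the E-box binding factor gene usf2 (-0.06 ± 0.27). The sign of such small changes varied with the scaling, and szl had a log2 fold change of -0.37 without CoMo 2. At the edge of the selection, gene6562 had a log2 fold change of -0.14 ± 0.18 (SE) and abhd17a one of 0.34 ± 0.20 (SE), and neither was called.

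By role, the 14 transcription factors held 8 called lower and none higher, with a median log2 fold change of -1.01. Beside tbx20 and hand2, 3 of the other genes called lower were chosen for mention after their values were seen. The cardiac and gut homeobox gene nkx2-3 on chromosome 7 had 42.7, 39.5 and 80.2 CPM in hRescue, against 183, 183 and 248 CPM in CoMo, and a log2 fold change of -2.15 ± 0.31 (SE, edgeR adjusted p = 0.000696). The BMP-responsive homeobox gene msx2 on chromosome 3 had 124, 174 and 117 CPM in hRescue, against 229, 215 and 288 CPM in CoMo (log2 fold change -1.06 ± 0.23 SE, edgeR adjusted p = 0.00538). The T-box repressor gene tbx3 on chromosome 1 had 267, 248 and 271 CPM in hRescue, against 541, 299 and 572 CPM in CoMo (log2 fold change -1.11 ± 0.28 SE, edgeR adjusted p = 0.0123). The paralog msx1 on chromosome 1 was not called, with 384, 407 and 332 CPM in hRescue, against 303, 187 and 298 CPM in CoMo. Whether msx1 and msx2 differ from each other was not tested.

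The distal-less gene dlx5, which marks ectoderm at the neural plate border, was the only one of the 100 genes with a symbol on any marker list. The 50 genes without a symbol could not be checked. It had 171, 159 and 145 CPM in hPhf8, against 206, 232 and 236 CPM in LacZ. In hRescue it had 193, 215 and 224 CPM, against 200.3, 173 and 237 CPM in CoMo, and was not called (log2 fold change -0.19 ± 0.20 SE, edgeR adjusted p = 0.512). Its hRescue and CoMo values overlapped, and all hRescue libraries exceeded all hPhf8 libraries.

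The 10 ligands and signal modulators held 6 called lower and none higher (median log2 fold change -1.24), and the 7 receptors and channels held 6 lower and none higher (median -2.46). As examples chosen after their values were seen, the growth factor gene pdgfa on chromosome 9 had 60.3, 34.2 and 40.5 CPM in hRescue, against 149.4, 95.7 and 219 CPM in CoMo (log2 fold change -2.05 ± 0.34 SE, edgeR adjusted p = 0.00137). The ErbB ligand gene nrg1 on chromosome 1 had 33.4, 31.2 and 35.6 CPM in hRescue, against 86.7, 98.9 and 118 CPM in CoMo (log2 fold change -1.84 ± 0.19 SE, edgeR adjusted p = 0.000197). In hPhf8 1 and 3, nrg1 had 98.0 and 97.5 CPM, within the range of CoMo. The netrin receptor gene unc5b on chromosome 7, the most abundant of the receptors, had 479, 422 and 597 CPM in hRescue, against 1238, 919.9 and 1455 CPM in CoMo (log2 fold change -1.52 ± 0.26 SE, edgeR adjusted p = 0.00161). The potassium channel gene kcnk9 on chromosome 6 had 4.03, 5.64 and 3.99 CPM in hRescue, against 27.0, 18.5 and 17.9 CPM in CoMo (log2 fold change -2.46 ± 0.31 SE, edgeR adjusted p = 0.000365). Of the 4 ligands and modulators that were not called, the Notch ligand gene dll1 on chromosome 5 had 448, 380.4 and 187 CPM in hRescue, against 179, 139 and 252 CPM in CoMo, with overlapping groups.

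The other roles also held genes called lower. The 7 GTPases, G protein subunits and regulators held 3 lower and, with rasd1, 1 higher (median -0.60). The 9 chromatin and RNA factors held 4 lower and none higher (median -0.51). The gene ubtf on chromosome 10, which encodes an activator of ribosomal RNA transcription, had 193, 189 and 195 CPM in hRescue, against 374, 299.8 and 407 CPM in CoMo (log2 fold change -1.15 ± 0.20 SE, edgeR adjusted p = 0.00178). The 8 metabolic enzymes held 3 lower and, with gch1, 1 higher (median -0.48). The most abundant enzyme gene among them, gfpt1 on chromosome 3, encodes the first enzyme of hexosamine synthesis and had 4674, 4905 and 5524 CPM in hRescue, against 6785, 6863 and 6734 CPM in CoMo (log2 fold change -0.66 ± 0.20 SE, edgeR adjusted p = 0.0288). All of these role counts cover named genes only and should be read first beside the 53 of the 100 genes with a symbol that were lower. Among all genes past the filter, 28.6% were lower, but the symbols came from tables that list mainly genes that changed.

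Markers of the cell types of the explant moved with the hRescue comparison. The list counts stand beside 18.7% lower and 14.7% higher of all genes tested. Among tested genes past the level filter, 28.6% were lower and 12.3% higher. Matching used names from tables that list mainly genes that changed, so unchanged markers may be missing. Names matched for 16 of 20 multiciliated (17 IDs), 9 of 9 ionocyte, 5 of 7 goblet, 2 of 4 small secretory and 8 of 10 ectoderm markers. They matched for 2 of 6 neural, 3 of 4 neural crest, 2 of 7 mesoderm, 2 of 5 endoderm and 2 of 4 blood markers. Of the matched multiciliated cell markers 16 of 17 were lower in hRescue and none higher (median log2 fold change -1.87), with summed levels of 1670 to 2369 CPM in hRescue, against 3761 to 6405 CPM in CoMo. Ionocyte markers fell likewise (7 of 9, median -1.70), with sums of 384 to 595 CPM in hRescue, against 905 to 1083 CPM in CoMo. The goblet cell list held 3 lower of 5 (median -1.51), with sums of 5525 to 6205 CPM in hRescue, against 4922 to 5845 CPM in CoMo. Most of these sums came from otog, which was not called (5703, 5162 and 5963 CPM in hRescue, against 5252, 5143 and 4660 CPM in CoMo). The small secretory cell list held 1 lower of 1 (-2.16) and the basal and other ectoderm list 2 lower and 1 higher of 8 (-0.40). Neural and neural crest lists each held 1 lower and 1 higher of 2 (medians 0.56 and 0.46). Mesoderm and muscle gave 1 higher of 2 (2.29), endoderm 1 higher of 1 (4.94) and blood 0 of 1 (-0.23). Between hPhf8 1 and 3 and LacZ, the summed levels overlapped for some lists, at 4537 to 5372 CPM in hPhf8 and 3140 to 6892 CPM in LacZ for multiciliated markers, and at 2055 to 2166 CPM in hPhf8 and 771 to 2061 CPM in LacZ for ionocyte markers. Goblet cell sums, again mostly otog, overlapped as well (5156 to 7309 CPM in hPhf8, 6038 to 7467 CPM in LacZ). Those of 2 lists were lower in hPhf8 without overlap, small secretory cells (30.3 to 63.7 CPM in hPhf8, 64.4 to 70.3 CPM in LacZ) and basal and other ectoderm (5656 to 5690.1 CPM in hPhf8, 6137 to 7020 CPM in LacZ). The first sum holds only foxa1 and ddc, and foxa1 alone overlapped (63.2 and 28.6 CPM in hPhf8 1 and 3, against 67.4, 56.7 and 66.4 CPM in LacZ). The second includes dlx5, which was chosen for being lower in hPhf8. Nothing is read from either sum. The part of cell type shares in the results for the 150 genes was not tested.

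Among matched genes, the lists of stress and early genes held mostly genes that were higher in hRescue, beside 14.7% of all genes tested. Names matched for 12 of 12 immediate-early and stress genes and 6 of 7 maternal and early embryo genes. They matched for 4 of 7 p53 response, 5 of 6 heat shock and unfolded protein and 9 of 12 cell cycle genes. Immediate-early and stress genes were higher in 10 of 12 (median log2 fold change 3.53), with sums of 2876 to 4639 CPM in hRescue, against 356 to 560.0 CPM in CoMo. Maternal and early embryo genes were higher in 6 of 6 (2.08), p53 response genes in 3 of 4 (1.80), and heat shock and unfolded protein genes in 3 of 5, with 1 lower (1.18). Cell cycle genes were mixed, with 4 higher and 3 lower of 9 (0.28). None of the matched genes of these lists is among the 150, of which 50 have no symbol and could not be checked. The part of these lists in the results was not tested. In hPhf8 1 and 3 the immediate-early sums were 384 and 393 CPM, against 363 to 443 CPM in LacZ.

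Of the 6 genes of the H4K20 and PHF8 list, 3 could be matched by name. Of these 3, 2 were lower in hRescue (median -0.64), and none is among the 150. The frog phf8 gene had 148.3, 127 and 125 CPM in hRescue, against 163.5, 175 and 191 CPM in CoMo (log2 fold change -0.64 ± 0.16 SE, edgeR adjusted p = 0.0114). The transcript of suv420h1, target of the first morpholino, had 72.0, 57.7 and 71.5 CPM in hRescue, against 89.3, 72.5 and 118 CPM in CoMo (-0.73 ± 0.24 SE, edgeR adjusted p = 0.0381). That of kmt5c, target of the second, had 167, 139 and 136 CPM in hRescue, against 129, 107 and 143 CPM in CoMo (-0.03 ± 0.19 SE, edgeR adjusted p = 0.922).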

How the data were processed

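The authors deposited raw counts per gene for each library. Per the labels and the study's methods, RNA was depleted of ribosomal RNA, sequenced in directional 50-base read pairs and aligned with STAR 2.7.1a, whose gene counts give 3 columns (unstranded and both strands). The column with the higher sense totals was used. The 4 STAR totals and the entry for features without an ID were left out. IDs were named from name columns of the study's supplementary tables (6622 IDs, v9.1 gene models) and a RefSeq table, and those tables list mainly genes that changed.

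The members and lists were chosen with earlier results of these data known. Named genes were the 10 with the widest gap, up to 8 called higher and 8 called lower in hRescue with the largest change (mean of at least 20 counts), up to 6 with the smallest uncalled change, those on marker lists, those at the edge and the targeted genes. A result that this rule would name is not reported here. Tests used edgeR 4.0.16 in R 4.3.3 (quasi-likelihood, TMM, two-sided, Benjamini-Hochberg adjustment over all genes with at least 1 read in 5 of 6 libraries). The edgeR test was also run on simulated counts of the hRescue and CoMo libraries. Alternatives were DESeq2 1.42.0, DESeq2 size factors, no TMM, other filters, unstranded counts, a 12-library fit, a replicate block and each library left out. In hRescue and CoMo, deviations of same-numbered libraries correlated at 0.22, 0.42 and 0.23 across 14587 genes. The replicate numbers were therefore used as a block in the alternative of that name. The main fit did not use them, and no label says that they pair the libraries. Cell type lists were multiciliated, ionocyte, goblet, small secretory, ectoderm, neural, neural crest, mesoderm, endoderm and blood.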

Additional observations from a re-analysis of the deposited data

Results flagged for a closer look

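Counts on the strand opposite to the 150 genes were not part of the comparisons. In hRescue they made up 0.902%, 0.645% and 0.462% of the genes' sense and antisense counts in replicates 1 to 3, and the lowest of these, 0.462%, was above the highest control library (0.381%). The share over all genes was also higher in hRescue, at 4.15%, 3.96% and 3.84%, against 2.34% (LacZ 2) to 2.88% (CoMo 1) in the controls. The higher share in hRescue is thus not particular to the 150 genes. In hPhf8 1 to 3 the share over all genes was 2.58%, 23.5% and 3.62%, so hPhf8 2 had the highest of all libraries. On the 150 genes, hPhf8 1 to 3 had 0.286%, 0.302% and 0.255%. Counts of features without a gene ID were also left out, and took at least 53.9% of feature counts in every hRescue library, against at most 31.6% in a control library.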

How the results depend on the processing

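Of the values of the named genes in hRescue against CoMo under the alternatives, 333 stayed on the same side of the threshold, 29 were no longer past it and 2 were newly past it. No called gene changed direction, while uncalled genes with changes near 0 did. With library sizes in place of TMM, 57 of the 150 genes were called lower and 11 higher, against 69 and 8 with TMM. The median log2 fold change of the 150 genes was then -0.37, where that of all genes tested was 0.21 against -0.02. When each library was left out, the median of the 150 genes was -0.78 to -0.53, lowest without CoMo 2 (-0.78) and without hRescue 3 (-0.76). Without 1 library the genes called lower numbered 50 (without hRescue 1) to 86 (without CoMo 2), those called higher 5 to 6 and all genes called 4020 to 6115. With the replicate block 73 genes were lower and 8 higher, 69 and 7 of them shared with the fit without it, and only the call of gch1 among the named genes was lost. For hPhf8 against LacZ the correlations of same-numbered libraries were 0.34, 0.12 and 0.03. The same-numbered LacZ library had the highest correlation for hPhf8 1 and 2 and not for hPhf8 3, so whether the numbers pair these libraries is open. In this comparison 0 genes were called with the block as without it, and 0 with any 1 library left out. DESeq2 called 64 genes, 30 of them among the 150, which were chosen on the same values. The cause of this difference between edgeR and DESeq2 was not tested. All 3 CoMo libraries exceeded hPhf8 for 119 genes without CoMo 2, an alternative added after seeing the data. The choice of genes shared 111 of 150 with a floor of 1 CPM, 140 with a pseudocount of 5, 136 with unstranded counts and 107 with TMM factors, and the genes so chosen held 60 to 75 lower and 8 to 11 higher in hRescue (added after seeing the data). Depth limits genes under about 5 CPM in hRescue, where 3 counts are 0.403 to 0.570 CPM.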
